A study of Rattus norvegicus with 8 samples.

Results

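The genes described here are 3 members of the MHC class II antigen presentation pathway, Cd74 (ENSRNOG00000018735), RT1-Da (ENSRNOG00000032844) and RT1-Ba (ENSRNOG00000000451), among 32623 genes in the count table. They were taken by Ensembl gene ID. The count table holds IDs only, and the pairing of these 3 IDs with their symbols came with the choice of the genes. RNA sequencing of hippocampal tissue compared 2 inbred strains, the spontaneously hypertensive rat (SHR), whose blood pressure becomes high with age, and the Wistar-Kyoto rat (WKY), a related strain with normal blood pressure. There were 4 libraries of each strain, all from rats aged 32 weeks, and the labels name no treatment other than pentobarbital anaesthesia before the tissue was taken, which both groups shared. Whether each library stands for its own animal is not stated, so the p-values below reflect variation among libraries, part or all of which may be technical.

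MHC class II molecules are pairs of an alpha and a beta chain on the surface of antigen-presenting cells, where they show peptides from engulfed proteins to CD4+ T cells. In the rat the MHC is called RT1. RT1-Da encodes the alpha chain of the D molecule, the counterpart of human HLA-DR, and RT1-Ba the alpha chain of the B molecule, the counterpart of human HLA-DQ. Cd74 encodes the invariant chain, which binds newly made class II pairs in the endoplasmic reticulum, fills their groove and escorts them to the endosome, where it is cut away before a peptide is loaded. In a healthy brain, class II expression is low and is known mainly from microglia, perivascular and meningeal macrophages and the few lymphoid and dendritic cells at the borders of the tissue.

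The class II genes and Cd74 are known to share a promoter module in which an X box binds the RFX complex, the neighbouring X2 element binds CREB, and a Y box binds NF-Y, with CIITA recruited to all of them. The promoters are shown so that the letters of this module can be compared between the 3 genes. Each sequence below holds the 115 bases before the first annotated base of the gene in RefSeq on the GRCr8 build, which is the genome of a Brown Norway rat, and neither SHR nor WKY sequence was used here. They lie on the plus strand at chr18:56526956-56527070 for Cd74, chr20:4515278-4515392 for RT1-Da and chr20:4576942-4577056 for RT1-Ba. Capitals mark matches, searched on both strands, to an X box core (CTAGNAACA, where N is any base), to the X2-type cyclic AMP response element (TGACGTCA) and to a Y box core (ATTGG, or CCAAT when read on the other strand), the last lengthened to CTGATTGG where it was present.
Cd74: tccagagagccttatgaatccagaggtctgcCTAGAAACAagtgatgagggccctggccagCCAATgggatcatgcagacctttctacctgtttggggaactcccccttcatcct
RT1-Da: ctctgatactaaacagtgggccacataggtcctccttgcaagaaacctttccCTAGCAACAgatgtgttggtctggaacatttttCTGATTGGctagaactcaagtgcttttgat
RT1-Ba: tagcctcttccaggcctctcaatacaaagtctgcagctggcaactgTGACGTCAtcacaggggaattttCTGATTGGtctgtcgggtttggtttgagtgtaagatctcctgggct

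Counted back from the gene's first annotated base, the X box core of Cd74 spanned bases -84 to -76 and that of RT1-Da bases -63 to -55. RT1-Ba had no exact match to these X box letters and had the cyclic AMP response element at bases -69 to -62, which was not matched in the other 2. Just before that element RT1-Ba held ctggcaact, which resembles the X box core. Only exact letters were searched, so a missing match does not show that an element is absent. The Y box core lay downstream in all 3, at -54 to -50 on the minus strand in Cd74, at -27 to -23 on the plus strand in RT1-Da and at -43 to -39 on the plus strand in RT1-Ba. Of 22525 promoters of the same length, 0.488% held the X box core, 1.16% the cyclic AMP response element, 19.97% the Y box core and 2.08% its longer form, which contains the core. The X box core stood together with the Y box core in 19 of them (0.0844%), and the cyclic AMP response element with the Y box core in 68 (0.302%). The motif letters were chosen with these 3 sequences in view, so the matches are a description.

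The SHR libraries held 45048841 to 49560687 counts and the WKY libraries 53045139 to 53699673, without overlap (p = 0.0286 in a two-sided exact permutation test, which can go no lower with 4 against 4). WKY replicate 4 stood apart from the other WKY libraries. Over all 16867 genes tested, its log2 CPM correlated at 0.965 on average with the other WKY libraries and at 0.970 with the SHR libraries, whereas the remaining 7 were all closer, on average, to libraries of their own strain. The points of these correlations are genes, and genes are no independent replicates. The strain differences, the ratio of RT1-Da to Cd74, the correlation and the likeness of other genes are therefore given with and without this library. It was singled out by its likeness to the other strain. The genes called over the whole table (edgeR) were 6 with it and 458 without it, so a lower adjusted p without it is no added support. No Ensembl ID other than those of the 3 genes could be given a symbol, so markers of hippocampal neurons, microglia, macrophages and lymphoid cells could not be looked up, and neither the labelled tissue nor the cells that carried the class II RNA were checked. In bulk tissue, fewer cells of a type and less RNA per cell cannot be told apart.

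All 3 genes had lower mean expression in SHR than in WKY, and in edgeR's quasi-likelihood test over 8 libraries none reached an adjusted p of 0.05. That threshold was met by 6 of 16867 genes tested, of which 5 (0.0296% of those tested) were lower in SHR, so few genes of any kind were called. Expression in CPM (counts relative to library size, with TMM scaling) was 3.42-fold lower in SHR for Cd74 and 2.85-fold lower for RT1-Da in the fitted model. RT1-Ba had 0 counts in every SHR library.

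Cd74, the invariant chain, had 115, 50, 75 and 68 counts in SHR replicates 1 to 4 and 354, 381, 124 and 339 counts in WKY replicates 1 to 4. On the CPM scale these were 2.64, 1.08, 1.47 and 1.42 CPM in SHR and 6.68, 7.25, 2.33 and 6.32 CPM in WKY. SHR replicates 2, 3 and 4 lay below every WKY library, and WKY replicates 1, 2 and 4 lay above every SHR library. The strains overlapped only through SHR replicate 1 and WKY replicate 3, whose order was the reverse of that of the strains. The SHR mean was 1.65 ± 0.683 CPM and the WKY mean 5.64 ± 2.24 CPM (SD, n = 4 each). The log2 fold change of SHR against WKY was -1.78 ± 0.38 (SE), with an adjusted p of 0.165 in edgeR.

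The unadjusted p of Cd74 was 0.000840, which ranked it 86 of 16867 genes in the edgeR test. An unadjusted p under 0.05 with lower expression in SHR was found for 7.24% of all genes tested. Among 1383 genes within 0.5 log2 units of Cd74 in average expression, 11 (0.795%) had a lower log2 fold change. When WKY replicate 4 was left out, Cd74 had a log2 fold change of -1.72 ± 0.41 (SE) and an adjusted p of 0.0578 in edgeR, in a fit that called 1.53% of the 17029 genes tested as lower in SHR. The log2 fold change was thus smaller in size, with a larger SE, than over 8 libraries, where 0.0296% of genes were called as lower. Without the WKY library with the lowest Cd74, replicate 3, it was -2.03 ± 0.29 (edgeR, adjusted p = 0.126). DESeq2 over the same 8 libraries gave nearly the same estimate, -1.77 ± 0.38, with an adjusted p of 0.000759, in an analysis that called 1.37% of genes with an adjusted p as lower in SHR. Over all alternatives run, the adjusted p of Cd74 ranged from 0.000759 to 0.458, and only DESeq2 placed it under 0.05.

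RT1-Da, the D alpha chain, had 14, 24, 25 and 10 counts in SHR replicates 1 to 4 and 35, 71, 31 and 97 counts in WKY replicates 1 to 4. These corresponded to 0.322, 0.517, 0.489 and 0.208 CPM in SHR and 0.660, 1.35, 0.582 and 1.81 CPM in WKY. Every SHR library lay below every WKY library, with a narrow gap between SHR replicate 2 and WKY replicate 3. Ranges that did not overlap, with SHR the lower strain, were found for 3.84% of all genes tested. The SHR mean was 0.384 ± 0.145 CPM and the WKY mean 1.10 ± 0.585 CPM (SD, n = 4 each), with WKY replicates 2 and 4 well above replicates 1 and 3. The log2 fold change was -1.51 ± 0.47 (SE), with an adjusted p of 0.264 and an unadjusted p of 0.00922 in edgeR.

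RT1-Da ranked 585 of 16867 genes by p, and 24 of 1031 genes of like average expression (2.33%) had a lower log2 fold change. WKY replicate 4 held the highest RT1-Da level of the 8 libraries. With that library left out, RT1-Da differed by -1.16 ± 0.48 on the log2 scale (SE; edgeR, adjusted p = 0.252). The WKY mean over replicates 1 to 3 was then 0.865 ± 0.423 CPM (SD, n = 3). None of the 14 alternatives in which RT1-Da was tested called it, with adjusted p from 0.109 to 0.589. It was not tested under the filter of at least 1 CPM in 4 libraries, which it did not pass.

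RT1-Ba, the B alpha chain, had 0 counts in all 4 SHR libraries and 15, 17, 14 and 16 counts in WKY replicates 1 to 4. The WKY values were 0.283, 0.324, 0.263 and 0.298 CPM, with a mean of 0.292 ± 0.0256 CPM (SD, n = 4). The strains were thus fully separated, and the WKY libraries lay close together. Of all genes tested, 0.0119% had 0 counts in every SHR library and at least 10 in every WKY library. RT1-Ba passed the low-count filter through its WKY libraries alone, since 0 of 4 SHR libraries reached 10 counts. The limit that a count of 0 allows, 3 counts per library, is 0.0587 to 0.0689 CPM in the SHR libraries. The WKY mean was 4.59-fold the mean of these limits and 4.24-fold the highest of them. Without WKY replicate 4 it was 4.55-fold the mean limit. These folds are rough, since low counts may not be tallies of single fragments and the error of the WKY mean is left out. These limits cover counting error only.

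The edgeR test gave RT1-Ba an unadjusted p of 0.000174, rank 26 of 16867, and an adjusted p of 0.109. The fitted fold change is not given as a result because it depends on the prior count when a whole group is at 0. Without WKY replicate 4 the adjusted p was 0.0304 (edgeR), and RT1-Ba was then the only one of the 3 genes called. It was also called by limma-voom over 8 libraries (adjusted p = 0.0141), which called 0.0237% of genes as lower in SHR. With sample quality weights in limma-voom the adjusted p was 0.00646, with 0.652% of genes called as lower in SHR. DESeq2 gave an unadjusted p and no adjusted p for this gene. Over the alternatives with an adjusted p the range was 0.00646 to 0.422. Because RT1-Ba entered these tests through the strain in which it is high, the calls restate the counts of 0 against 14 to 17 and are no further support for them.

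**Figure D1:**
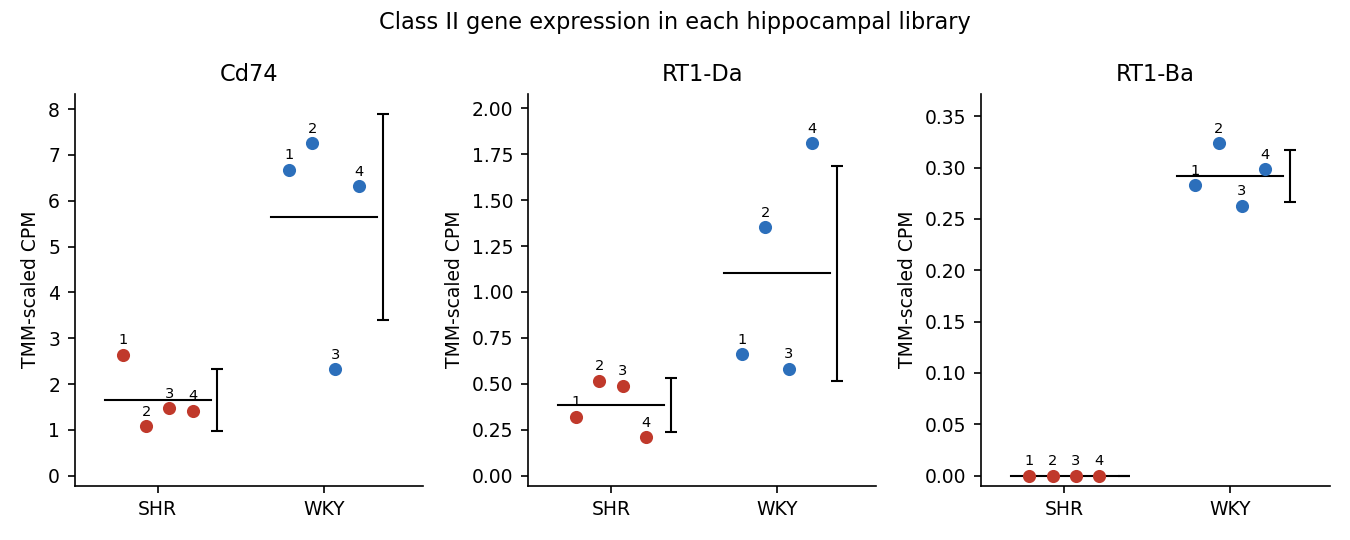
TMM-scaled CPM of Cd74, RT1-Da and RT1-Ba (vertical axes, linear) in the 4 SHR and 4 WKY libraries; points are libraries labelled by replicate number, horizontal lines are means and vertical bars are the SD (n = 4). Cd74 overlaps between the strains only through SHR replicate 1 (2.64 CPM) and WKY replicate 3 (2.33 CPM), RT1-Da does not overlap, and RT1-Ba is at 0 in every SHR library.

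RT1 alleles differ between rat strains, and the reads were aligned to rn6, the genome of the Brown Norway strain. An RT1 read that differs from the reference may fail to align or may be assigned to a related RT1 gene, so the RT1-Da and RT1-Ba counts may reflect allele sequence as well as expression. The part of read mapping in the RT1 results was not tested, since the deposited values are counts per gene. Cd74 lies outside the MHC, on chromosome 18, while both RT1 genes lie on chromosome 20. Read mapping at Cd74 was not tested either.

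At the 3 class II genes WKY replicate 4 did not lie with the SHR libraries. On a log2 CPM scale running from 0 at the mean of WKY replicates 1 to 3 to 1 at the SHR mean, it was at -0.239 for Cd74, -1.05 for RT1-Da and -0.0135 for RT1-Ba. It was therefore at or beyond the WKY side at all 3. The library nearest to SHR among the WKY libraries was replicate 3 for all 3 genes. When replicate 3 was itself left out of the WKY mean, it was at 0.734 for Cd74, 0.515 for RT1-Da and 0.0572 for RT1-Ba. WKY replicate 3 thus had Cd74 within the SHR range, RT1-Da at the low end of WKY and RT1-Ba at the level of the other WKY libraries.

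The genes differed in how much they varied within a strain. In WKY the highest library exceeded the lowest by 3.11-fold for Cd74 and 3.11-fold for RT1-Da, and by 1.23-fold for RT1-Ba. The coefficient of variation in WKY was 39.7% for Cd74, 53.2% for RT1-Da and 8.76% for RT1-Ba (n = 4 libraries). In SHR the highest library exceeded the lowest by 2.45-fold for Cd74 and 2.48-fold for RT1-Da. The libraries that were high for one gene were not always high for the other. SHR replicate 1 had the highest Cd74 of its strain and the second lowest RT1-Da, and WKY replicate 1 had high Cd74 with RT1-Da close to that of WKY replicate 3.

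Over the 8 libraries, log2 CPM of Cd74 and RT1-Da had a Pearson correlation of 0.741 (exact permutation test, two-sided, p = 0.0439) and a Spearman correlation of 0.691 (exact permutation p = 0.0694). Without WKY replicates 1 and 2, the libraries farthest from the median of Cd74, Pearson's r was 0.734 over 6 libraries (exact permutation p = 0.156) and Spearman's rho 0.429 (exact permutation p = 0.419). Without WKY replicate 4, r was 0.679 (exact permutation p = 0.101) and rho 0.643 (exact permutation p = 0.139) over 7 libraries. After the mean of its own strain was subtracted from each library, r was 0.298 (exact permutation p = 0.477) and rho 0.262 (exact permutation p = 0.536). The relation thus passed 0.05 only over all 8 libraries without regard to strain, with TMM or RLE scaling, by Pearson's r and not by Spearman's. Of 3 pairs planned, only this one was computed, because RT1-Ba formed separate clusters at 0 in SHR and above 0 in WKY. Within a strain, 4 libraries are too few for a correlation.

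**Figure D2:**
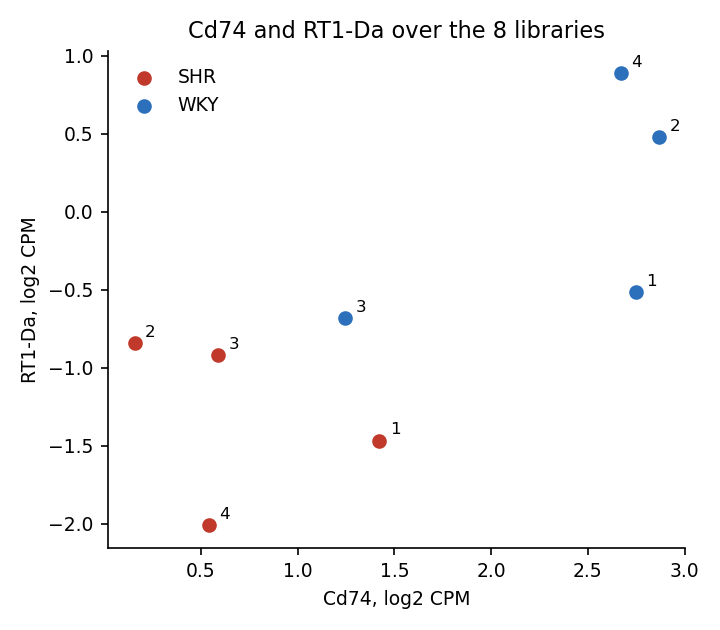
Log2 CPM of Cd74 (horizontal axis) against RT1-Da (vertical axis), one point per library, labelled by replicate number and coloured by strain. WKY replicates 2 and 4 are high for both genes, and WKY replicate 3 lies within the SHR range for Cd74 and just above it for RT1-Da.

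Ratios of counts within a library remove depth and scaling, and gene length cancels when a ratio is compared between libraries. RT1-Da had 12.2, 48.0, 33.3 and 14.7 counts per 100 Cd74 counts in SHR replicates 1 to 4 and 9.89, 18.6, 25.0 and 28.6 in WKY replicates 1 to 4. The ranges overlapped broadly, and the SHR values spanned the wider range. The mean log2 ratio was -2.11 ± 0.944 for the SHR libraries and -2.39 ± 0.682 for the WKY libraries (SD, n = 4 each), a difference of 0.28 that was smaller than the spread within either strain (exact permutation test, two-sided, p = 0.657). Leaving out 1 library at a time moved this difference between -0.071 and 0.589, with 0.476 without WKY replicate 4, and it was below 0 without SHR replicate 2 and without WKY replicate 1. With 4 libraries a strain and this spread, a difference of this size between the invariant chain and the D alpha chain was not detectable, which does not show that their strain differences are equal.

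RT1-Ba, the B alpha chain, had 4.24, 4.46, 11.3 and 4.72 counts per 100 Cd74 counts in WKY replicates 1 to 4, and 0 in each SHR library (mean 6.18 ± 3.41 in WKY, SD, n = 4). Per 100 RT1-Da counts it had 42.9, 23.9, 45.2 and 16.5 counts in WKY replicates 1 to 4 and 0 in each SHR library (mean 32.1 ± 14.1 in WKY, SD, n = 4). With RT1-Ba at 0 counts in SHR, both SHR ratios are 0 whatever the other gene does. These ratios are therefore given as a description, and their permutation tests are not read as a result. Since the SHR libraries held only 308 Cd74 counts and 73 RT1-Da counts in all, against 1198 and 234 in WKY, these ratios rest on few counts in SHR. The linear scale was chosen after the zeros were seen, because a log2 ratio has no value at 0.

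**Figure D3:**
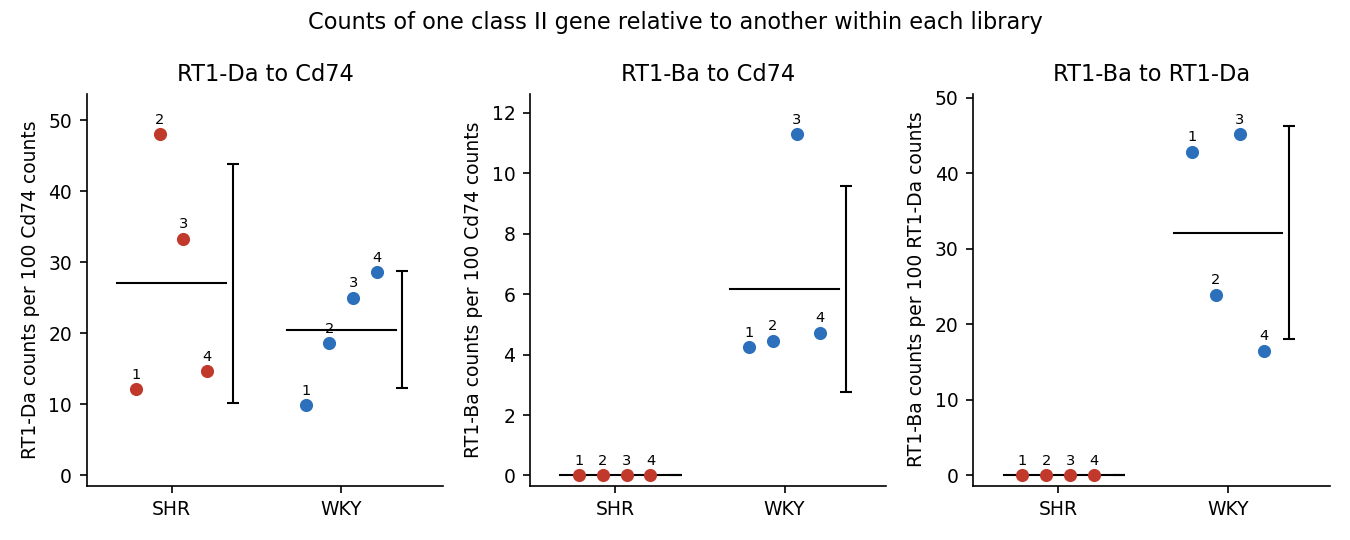
Counts of one gene per 100 counts of another within each library (vertical axes, linear), for RT1-Da to Cd74, RT1-Ba to Cd74 and RT1-Ba to RT1-Da; points are libraries labelled by replicate number, horizontal lines are means and vertical bars are the SD (n = 4). The RT1-Da to Cd74 ratio overlaps between the strains, and both RT1-Ba ratios are 0 in every SHR library and above 0 in every WKY library.

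The estimates for Cd74 and RT1-Da kept their direction in every setting run. The log2 fold change ran from -2.09 to -1.61 for Cd74 and from -1.72 to -1.16 for RT1-Da, while the adjusted p moved more than the estimate. With RLE in place of TMM scaling the values were -1.77 and -1.51, and the median log2 fold change of all genes tested was -0.0044 with TMM and -0.0018 with RLE.

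**Figure D4:**
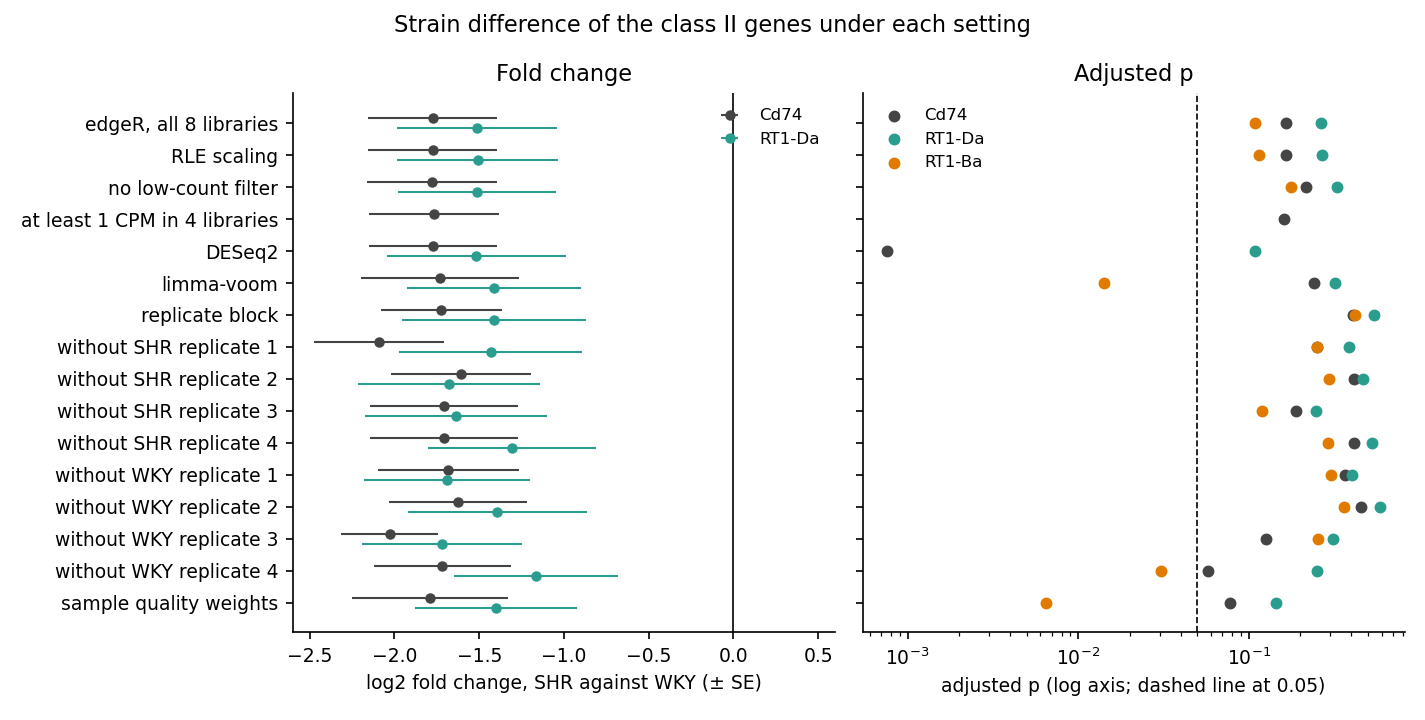
Left, log2 fold change of SHR against WKY with its SE for Cd74 and RT1-Da under each setting; right, adjusted p of all 3 genes on a log axis, with a dashed line at 0.05. All fold changes lie below 0, and only DESeq2 for Cd74, and limma-voom, sample quality weights and the fit without WKY replicate 4 for RT1-Ba, lie left of the dashed line.

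**Figure D5:**
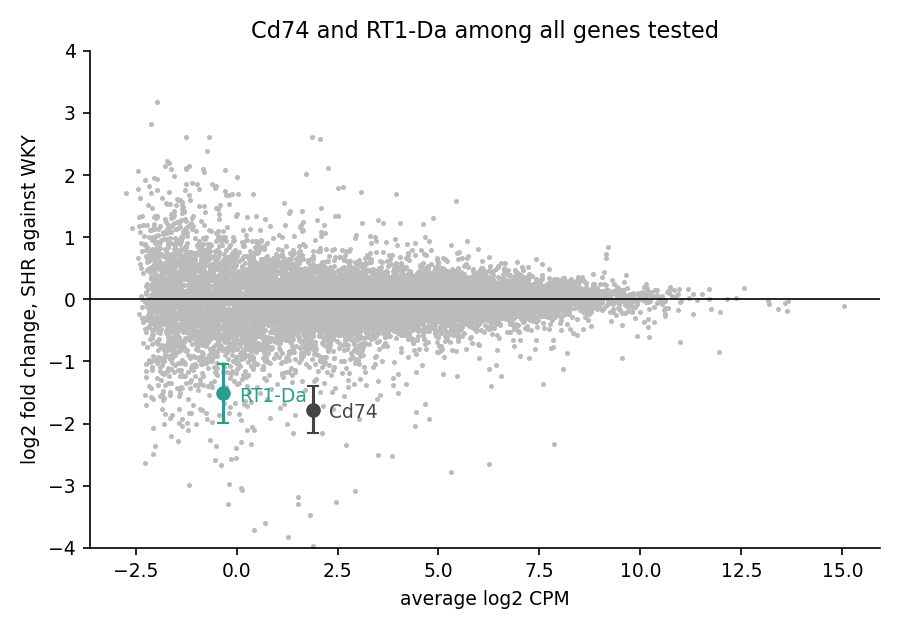
Log2 fold change of SHR against WKY (vertical axis) against average log2 CPM (horizontal axis) for the genes tested, in grey, with Cd74 and RT1-Da marked with their SE; 16 genes beyond 4 log2 units, RT1-Ba's fitted value aside, are off the axis. Cd74 (-1.78) and RT1-Da (-1.51) lie low among the genes of like expression, of which 0.795% and 2.33% had a lower log2 fold change.

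The genes whose pattern was most like that of the 3 together were sought among 13472 genes averaging 1 or more log2 CPM, by the Pearson correlation over the 8 libraries with the mean of the 3 genes' standardised log2 CPM. The first was ENSRNOG00000010997 (r = 0.972), whose mean was 29.3 ± 1.86 CPM over the SHR libraries and 41.7 ± 5.20 CPM over the WKY libraries (SD, n = 4 each). The fitted log2 difference was -0.51 ± 0.11 (SE; edgeR, adjusted p = 0.148). The second was ENSRNOG00000060580 (r = 0.968), whose mean was 6.61 ± 0.218 CPM over the SHR libraries and 8.003 ± 0.502 CPM over the WKY libraries, a fitted log2 difference of -0.28 ± 0.12 (SE; edgeR, adjusted p = 0.388). Both had smaller strain differences than Cd74 and RT1-Da, and in both WKY replicate 3 was the lowest WKY library, as it was for all 3 class II genes. The 2 genes were picked for their likeness over these same libraries. Their lower level in SHR and the shared order of libraries follow from that choice and are a description. Without WKY replicate 4 the correlations of these 2 genes were 0.957 and 0.953 over 7 libraries. The files pair neither ID with a symbol.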

How the data were processed

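The authors deposited raw read counts per Ensembl gene as 1 matrix of 8 libraries and 8 single-library tables, which held the same values in all 8. The submitters' processing notes name the rn6 build with StringTie 1.3.4d, HISAT2 2.0.4 and cutadapt 1.9. Annotation, strand setting and read filters: not given in the sources used here. In all 8 libraries more genes had exactly 4 counts than exactly 3, so low counts may not be tallies of single fragments, and a floor of 3 counts is only a rough limit.

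Genes were tested with edgeR 4.0.16 (R 4.3.3; quasi-likelihood, TMM scaling, filterByExpr, strain as the only term, Benjamini-Hochberg over all genes tested, threshold 0.05). The SE is the log2 fold change divided by the square root of F. Log2 CPM carried a prior count of 2. Ratios and correlations used exact permutation tests (scipy 1.17.1; 70 assignments for 4 against 4). Libraries of the same strain differed by a chi-square per degree of freedom of at least 15.5, so none was a copy of another. The lowest value, 15.5, was between SHR replicates 2 and 4, and the other pairs had 34.7 to 111. These values set counts against counting error only, so they do not show whether libraries came from different animals. The edgeR script was tested on simulated data. Changes were planted only in genes more abundant than RT1-Da and RT1-Ba, so the simulation does not cover genes at their level. No simulated library was made to stand apart from its strain, so it does not cover a library such as WKY replicate 4 either.

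Alternatives were limma-voom (limma 3.58.1), DESeq2 1.42.0, RLE scaling, a filter of at least 1 CPM in 4 libraries, no filter, the replicate number as a block, each library left out, and, added after the data were seen, sample quality weights, the linear ratios, and the correlation and likeness without WKY replicate 4. The text names the 3 genes and, as their IDs have no symbols, the first 2 of the most alike genes. Planned lists of other class II pathway genes and of cell type markers were not run, because 0 IDs could be matched to symbols. Promoter sequences are from RefSeq (GRCr8), matched by symbol for 3 of 3 genes. The genes and lists were chosen with earlier results of these data known.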

Additional observations from a re-analysis of the deposited data

Results flagged for a closer look

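In WKY replicate 3, RT1-Ba had 11.3 counts per 100 Cd74 counts, far from the 4.24 to 4.72 of the other WKY libraries. This library had 14 RT1-Ba counts, close to the 15 to 17 of the others, and 124 Cd74 counts against their 339 to 381, so the high ratio came with low Cd74. It was the only one picked out when the 4 libraries of each strain were examined for each gene and ratio, in 12 sets of which 3 were at 0 throughout, and chance picks out about 1 set in 20. Without this library the mean difference in the ratio, SHR minus WKY, was -4.47 counts per 100 Cd74 counts, against -6.18 with it.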

How the results depend on the processing

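The number of genes called over the whole table was 6, and it was 3 with no low-count filter, 334 with DESeq2, 230 with sample quality weights, 1 with the replicate block and 1 to 458 with 1 library left out, the highest without WKY replicate 4. The replicate numbers were not taken to pair the libraries, since the deviations of same-numbered libraries correlated at -0.157 to -0.00338. With the replicate block the log2 fold change was -1.72 for Cd74 (edgeR, adjusted p = 0.41) and -1.41 for RT1-Da (adjusted p = 0.54), and RT1-Ba had an adjusted p of 0.422. Of 15 alternatives for Cd74, only DESeq2 (log2 fold change -1.77) moved it past the threshold. RT1-Ba had 14 alternatives, of which DESeq2 gave no adjusted p. It passed the threshold in 3: limma-voom (fitted log2 fold change -4.83), sample quality weights (-4.82) and leaving out WKY replicate 4. Over the libraries left out the fitted values were -6.92 to -6.82. All these fitted values depend on the prior count and are not read as a result. RT1-Ba was tested through the strain in which it is high, so the calls restate its counts and are no further support. Cd74 ran from -2.09 to -1.61 with 1 library left out.

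The difference in log2 RT1-Da to Cd74 ratio was -0.071 to 0.589 with 1 library left out. The RT1-Ba ratios, which are 0 in SHR by their numerator and are read as a description, differed by -6.82 to -4.47 counts per 100 Cd74 counts and by -37.3 to -27.8 per 100 RT1-Da counts with 1 library left out and by -6.18 and -32.1 in pairs by replicate number (replicate block). The Cd74 with RT1-Da correlation (Pearson 0.741, Spearman 0.691) was 0.734 and 0.429 without the 2 libraries farthest from the median, 0.298 and 0.262 after the strain means were subtracted, and 0.679 and 0.643 without WKY replicate 4. RT1-Ba and RT1-Da did not pass the filter of at least 1 CPM in 4 libraries. The correlations with RT1-Ba and the list of other class II pathway genes were not run. Depth limits RT1-Ba, with 14 to 17 counts in a WKY library.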

Other observations

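Only 2 of 16867 genes tested (0.0119%) had 0 counts in all 4 SHR libraries and at least 10 in all 4 WKY libraries, and none had the reverse pattern. One was RT1-Ba. The other, ENSRNOG00000007092, had 88, 40, 65 and 61 counts in WKY replicates 1 to 4. The pattern was chosen after the values of RT1-Ba were seen. WKY replicate 4 held both genes at counts between the lowest and the highest of WKY replicates 1 to 3. The files pair this ID with no symbol.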
